A study of Homo sapiens with 6 samples.

Results

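The snoRNA host genes are genes whose introns carry small nucleolar RNAs (snoRNAs). They were taken as every gene with a GENCODE release 29 symbol made of SNHG and a number, plus GAS5, EPB41L4A-AS1, ZFAS1 and TAF1D. This rule found 29 of the 58302 genes in the files, under 28 symbols and on 14 chromosomes, since SNHG28 is the symbol of 2 genes. In these neuroblastoma cells 22 of the 29 averaged 1 FPKM (fragments scaled by exon length in kilobases and by library size) or more. No host gene passed the main test for a difference after Prp19 knockdown, and neither did any other gene, the knocked-down target included. Among the host genes SNHG8 alone was called in 1 alternative fit, which called 7.82% of all genes tested in it. The groups did not overlap for SNHG11 and SNHG20, that is for 2 of the 22 beside 5.61% of all genes tested, and 12 of the 22 were lowest in replicate 3 of both groups beside 27.7%.

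Most human snoRNAs have no promoter of their own and are cut out of an intron after the host transcript is spliced. C/D box snoRNAs guide the methylation of ribosomal RNA, H/ACA box snoRNAs guide the conversion of uridine to pseudouridine there, and scaRNAs do the same for spliceosomal RNAs in the Cajal body. The spliced RNA that remains often has only short reading frames, so that a ribosome stops early and nonsense-mediated decay (NMD) removes the RNA. Prp19 is a ubiquitin ligase that joins the spliceosome when it is activated.

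The cells were SK-N-BE(2), an established human line from a neuroblastoma, the childhood tumour of the sympathetic nervous system, with amplified MYCN. Cells were transfected with negative control siRNA (NC) or with siRNA against Prp19 (siPrp19) and their RNA was sequenced, with 3 samples per group. The labels give 72 h of transfection for both groups, while the study's methods give a shorter time. All 6 samples are of 1 cell line, the methods say that the first of the tested siRNAs against Prp19 was carried forward, and nothing says which siRNA was sequenced. The methods call the 3 samples biological replicates without saying whether they were separate cultures, so that p-values measure only the spread between these samples.

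The knockdown was seen in the target gene. PRPF19, which encodes Prp19, had 53.1, 53.1 and 64.9 FPKM in NC replicates 1, 2 and 3 and 21.8, 28.5 and 33.6 FPKM in siPrp19 replicates 1, 2 and 3, without overlap. Its log2 difference was −1.04 ± 0.19 (SE without the block, n = 3), with an adjusted p of 0.9999 in limma without the block, the main test. The adjusted p was 0.190 in limma blocked by replicate number and 1.94e-13 in limma voom blocked likewise. The main test thus did not call even the knocked-down target, which limits what its lack of calls can show. Between 19058782 and 24181789 reads per sample lay on genes. All 12 markers of adrenergic neuroblastoma cells reached 1 FPKM, as did 4 of 5 fibroblast markers and EPCAM of the 3 epithelial markers, while the 3 leukocyte markers stayed below. Replicate 3 stood apart in both groups: DBH, the last enzyme of noradrenaline synthesis, had 3.49 and 3.94 FPKM there and 26.7 to 44.2 FPKM in the other 4 samples. In bulk RNA, fewer cells with a transcript and less of the transcript per cell cannot be told apart.

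The snoRNAs of the host genes that came closest to a difference are shown to make clear what these transcripts are processed for, together with SNORD104, which held the most reads of all nested snoRNA genes. The letters are those of the GENCODE release 29 transcripts, 5′ to 3′ and written as DNA. Capitals mark box C (TGATGA, the match nearest the 5′ end) and box D (CTGA, the match nearest the 3′ end) in the SNORD genes, and the ACA nearest the 3′ end in the SNORA and SCARNA genes. Only the transcribed strand was searched. Over all SNORD genes of the release, 76.3% of 278 hold TGATGA followed by CTGA, and 82.3% of 147 SNORA genes end in ACA or in ACA and 3 further bases. On GRCh38, SNORA60 in SNHG11 lies at chr20:38449370-38449503 and SNORD12B in ZFAS1 at chr20:49280319-49280409. SNORD1B in SNHG16 lies at chr17:76561109-76561192, SCARNA16 in SNHG20 at chr17:77089307-77089493, SNORD104 in SNHG25 at chr17:64146083-64146152 and SNORA24 in SNHG8 at chr4:118279190-118279320. All 6 lie on the plus strand.
SNORA60: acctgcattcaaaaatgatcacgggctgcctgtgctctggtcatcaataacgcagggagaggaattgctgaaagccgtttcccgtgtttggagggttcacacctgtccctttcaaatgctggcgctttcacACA
SNORA24: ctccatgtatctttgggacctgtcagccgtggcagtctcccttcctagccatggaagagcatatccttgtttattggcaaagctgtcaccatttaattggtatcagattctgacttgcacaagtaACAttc
SCARNA16: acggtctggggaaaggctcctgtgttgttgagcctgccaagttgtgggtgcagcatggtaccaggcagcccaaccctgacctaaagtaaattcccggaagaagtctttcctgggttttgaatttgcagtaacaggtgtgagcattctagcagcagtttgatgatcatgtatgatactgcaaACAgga
SNORD1B: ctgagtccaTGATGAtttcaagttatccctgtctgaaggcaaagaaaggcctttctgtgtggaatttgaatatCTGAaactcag
SNORD12B: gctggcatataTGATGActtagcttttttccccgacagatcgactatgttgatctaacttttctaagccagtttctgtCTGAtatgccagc
SNORD104: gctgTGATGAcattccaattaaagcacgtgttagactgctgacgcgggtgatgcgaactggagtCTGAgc

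The host genes differed widely in level, from GAS5 at 112 ± 24.8 FPKM (SD, n = 3 NC samples) down to SNHG25 at 1.29 ± 0.5001 FPKM among those past the filter. In NC, 13 host genes were above 10 FPKM and 9 lay between 1 and 10. GAS5, SNHG5, SNHG6 and SNHG8 led the order, followed by SNHG1, SNHG19, TAF1D, EPB41L4A-AS1, SNHG16, SNHG7 and ZFAS1. The order is loose: of 21 neighbouring pairs in it, 17 had overlapping ranges over the 3 NC samples. The 4 that did not overlap were ZFAS1 above SNHG3, SNHG15 above SNHG17, SNHG12 above SNHG10, and SNHG11 above SNHG20. The length behind an FPKM also bears on the order, because it adds the exons of all annotated transcripts, retained introns among them. In GAS5 these exons span 3631 bases while the representative spliced transcript has 632, and in SNHG14 they span 43324 against 2208. Over the 22 genes the median ratio of the 2 lengths was 1.91, and it was over 2 in 10 of them.

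**Figure D1:**
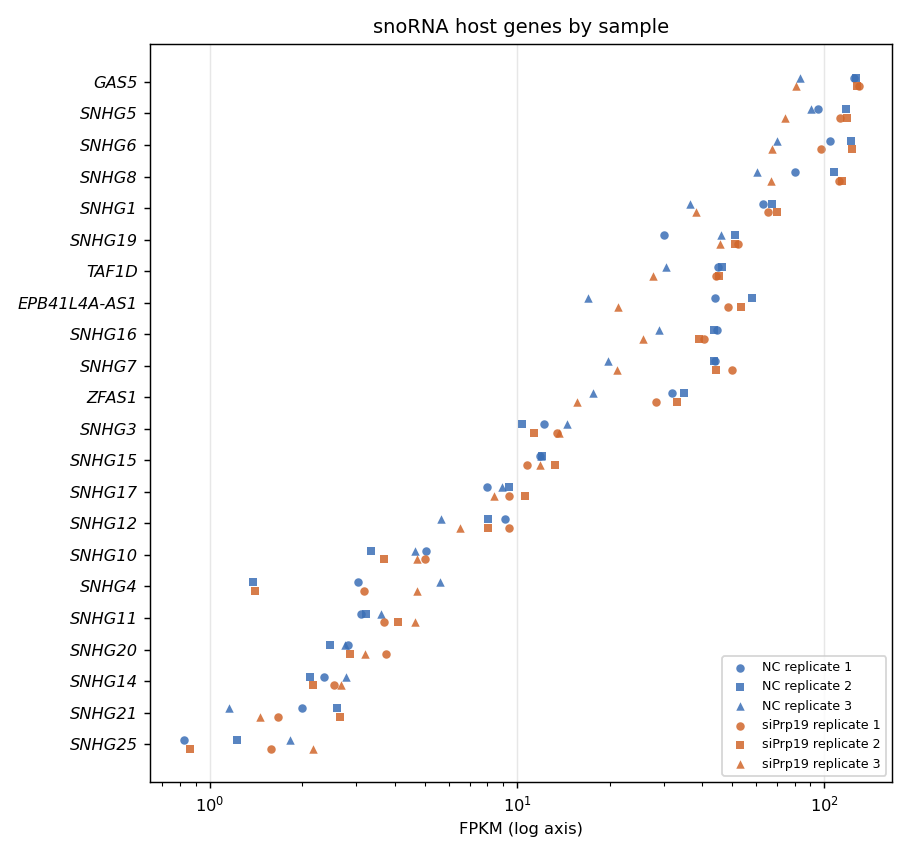
FPKM (x axis, log scale) of the 22 snoRNA host genes that averaged 1 FPKM or more, ordered by their NC mean, with 1 point per sample (blue NC, orange siPrp19, and the marker shape gives the replicate). The triangles of replicate 3 lie to the left in both groups for most of the highly expressed host genes, from GAS5 at 83.0 and 81.0 FPKM to ZFAS1 at 17.7 and 15.6 FPKM.

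The comparison of siPrp19 with NC asks whether less Prp19 goes with a different level of the host gene RNAs. An FPKM takes spliced transcripts and annotated retained introns together, so a shift between them was not measured. The comparison was made with limma on log2(FPKM + 0.1) over 14462 genes. There a value of 1 is a 2-fold difference and low values are understated. In the fit without a block, 0 of the 22 host genes had an adjusted p under 0.05 (Benjamini-Hochberg over all genes tested), as did 0% of all genes. At an unadjusted p under 0.05 there were 0 host genes, against 1.56% of all genes. The deviations of same-numbered samples from their group means were correlated, and a second fit therefore took the replicate number as a block. The block again gave 0 host genes and 0% of all genes at an adjusted p under 0.05, and 5 of 22 host genes (22.7%) at an unadjusted p under 0.05, against 15.7% of all genes. These 5 were SNHG11, SNHG20 and SNHG8 on the higher side and SNHG16 and ZFAS1 on the lower side. With limma voom on the reads recovered from the FPKM values and the same block, 7.82% of 14432 genes were called, and among the host genes SNHG8 alone was called.

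Of the 22, 15 had a log2 difference above 0 and 7 below, with a median of 0.05 beside −0.00 over all genes tested. SNHG5 and SNHG15, at −0.01 and −0.00, changed sign under another scaling, and the others kept theirs under each scaling tried. Over the 8 host genes whose exons overlap no other gene apart from snoRNA genes the median was 0.16. The median absolute log2 difference of all 22 host genes was 0.07, beside 0.10 over all genes tested. The median log2 difference of the 22 depended on single libraries, from −0.05 without NC replicate 3 to 0.19 without siPrp19 replicate 3. Within same-numbered pairs the median of the host genes was 0.08 in pair 1, 0.02 in pair 2 and −0.02 in pair 3. For 20 of the 22 genes every pair differed by less than 0.5 on the log2 scale, and for 20 the 95% interval with the block also lay within 0.5 either way, the exceptions to both being SNHG19 and SNHG25.

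**Figure D2:**
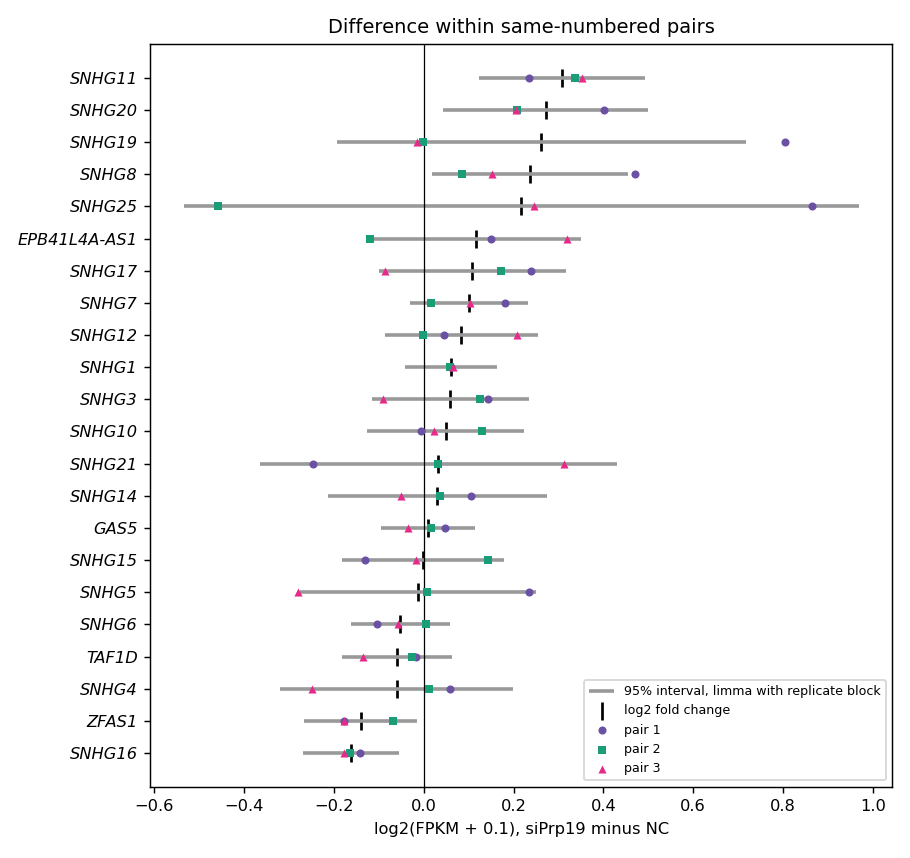
Log2 difference, siPrp19 minus NC, of each of the 22 host genes (x axis) within pair 1 (circle), pair 2 (square) and pair 3 (triangle), with the fitted log2 fold change (black tick) and its 95% interval from limma with the replicate block (grey bar). SNHG11, SNHG20 and SNHG8 have all 3 pairs above 0, SNHG16 and ZFAS1 have all 3 below 0, and in pair 1 SNHG19 and SNHG25 lie at 0.80 and 0.86.

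A higher value in 3 of 3 pairs was seen for 5 of the 22 host genes, beside 19.2% of all genes, and a lower value in 3 of 3 pairs for 3, beside 21.3%. The 5 were SNHG8, SNHG1, SNHG7, SNHG11 and SNHG20, and the 3 were TAF1D, SNHG16 and ZFAS1. The 2 groups did not overlap for SNHG11 and SNHG20, that is for 2 of 22, beside 5.61% of all genes.

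Among the hosts of C/D box snoRNAs, GAS5 was the highest. It was found as a transcript of growth-arrested cells, and its mature RNA is a well-known NMD substrate. GAS5 (ENSG00000234741) lies at chr1:173863900-173868882 on the minus strand of GRCh38, and its representative transcript has 12 exons. GAS5 had 125, 127 and 83.0 FPKM in NC replicates 1, 2 and 3 and 129, 128 and 81.0 FPKM in siPrp19, with 5959 to 10662 reads per sample. Replicates 1 and 2 of both groups lay close together, replicate 3 was lower in both, and the groups overlapped. The log2 difference was 0.01 with a 95% interval of −0.09 to 0.11 in limma with the block. SNHG1, the host of SNORD22 and its neighbours, had 62.9, 67.2 and 36.6 FPKM in NC and 65.6, 70.0 and 38.3 FPKM in siPrp19. Every siPrp19 sample was slightly above its partner, by 0.06 on the log2 scale in all 3 pairs, while replicate 3 was far below the others in both groups.

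SNHG16 (ENSG00000163597, chr17:76557766-76565348, plus strand), the host of SNORD1A, SNORD1B and SNORD1C, had 44.7, 43.7 and 28.97 FPKM in NC and 40.5, 39.0 and 25.6 FPKM in siPrp19. The siPrp19 value was below its partner in 3 of 3 pairs, by −0.14, −0.16 and −0.18 on the log2 scale, but the groups overlapped. Its SE was 0.25 without and 0.04 with the block, and the adjusted p in limma with the block was 0.219. ZFAS1 (ENSG00000177410, chr20:49278178-49295738, plus strand) lies antisense to the start of ZNFX1 and hosts SNORD12, SNORD12B and SNORD12C. It had 32.0, 34.8 and 17.7 FPKM in NC and 28.3, 33.2 and 15.6 FPKM in siPrp19, again lower in 3 of 3 pairs with overlapping groups. The log2 difference of ZFAS1 was −0.14 ± 0.05 (SE with the block, n = 3 pairs), with an adjusted p of 0.289 in limma with the block. Exons of other genes overlap 30.6% of the exon bases of SNHG16 and up to 42.9% of those of ZFAS1. Since counting by strand is not stated, reads of the overlapping genes cannot be told apart. Of the 22 host genes 14 share exon bases with another gene in this way, EPB41L4A-AS1 with 49.6%, SNHG6 with 29.3%, SNHG7 with 25.2% and SNHG20 with up to 8.89%.

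SNHG5, the host of SNORD50B, had 95.1, 117 and 90.1 FPKM in NC and 112, 118 and 74.2 FPKM in siPrp19. It was higher in pair 1, level in pair 2 and lower in pair 3, for a log2 difference of −0.01. SNHG6, which hosts SNORD87, had 105, 122 and 70.2 FPKM in NC and 97.2, 122 and 67.5 FPKM in siPrp19, so that its groups overlapped as well. SNHG19, the short 2-exon host of SNORD60, had 30.0, 51.1 and 46.1 FPKM in NC and 52.5, 51.05 and 45.6 FPKM in siPrp19. Its log2 difference of 0.26 came from pair 1 alone, with 0.80 there and −0.00 and −0.02 in the others. SNHG14 is the long imprinted transcript beyond SNRPN that carries the SNORD116 and SNORD115 clusters and reaches into UBE3A antisense. It had 2.36, 2.12 and 2.77 FPKM in NC and 2.55, 2.17 and 2.67 FPKM in siPrp19, with a log2 difference of 0.03.

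Among the hosts of H/ACA box snoRNAs, SNHG8 and SNHG11 had the larger differences. SNHG8 (ENSG00000269893, chr4:118278709-118279823, plus strand) hosts SNORA24 and had 80.3, 107 and 60.3 FPKM in NC replicates 1, 2 and 3 and 111, 114 and 67.0 FPKM in siPrp19. All 3 siPrp19 samples were above their partners, by 0.47, 0.08 and 0.15 on the log2 scale, but the range of NC lay across that of siPrp19. In limma the log2 difference was 0.24 ± 0.29 (SE, n = 3) without and ± 0.08 with the block, and the adjusted p with the block was 0.300. The voom fit with the block called it, at 0.26 and an adjusted p of 0.0154, and the call was lost without pair 1 (0.12, limma voom adjusted p = 0.665). No other gene apart from snoRNA genes overlaps its exons.

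SNHG11 (ENSG00000174365, chr20:38446578-38450921, plus strand), the host of SNORA60 and SNORA71E, had 3.11, 3.23 and 3.61 FPKM in NC and 3.68, 4.10 and 4.64 FPKM in siPrp19, on 160 to 324 reads per sample. The lowest siPrp19 value was just above the highest NC value, so the groups did not overlap. The means were 3.32 ± 0.261 and 4.14 ± 0.484 FPKM (SD, n = 3), and the exact permutation p (two-sided) was 0.1, the smallest value that 3 against 3 samples allow. SNHG11 had a log2 difference of 0.31 ± 0.07 (SE with the block) and a 95% interval of 0.12 to 0.49, with an adjusted p of 0.211 in limma with the block and of 0.0926 in limma voom with the block. SNHG17 lies near SNHG11 on the other strand of chromosome 20 and hosts the SNORA71 family. It had 7.95, 9.39 and 8.93 FPKM in NC and 9.40, 10.6 and 8.40 FPKM in siPrp19, higher in 2 of 3 pairs.

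EPB41L4A-AS1, which hosts SNORA13, varied widely between replicates. Its values were 43.9, 58.3 and 17.1 FPKM in NC and 48.7, 53.6 and 21.3 FPKM in siPrp19, and replicate 3 was lowest in both groups. SNHG7, the host of SNORA17A and SNORA17B, was also lowest in replicate 3 of both groups, with 44.2, 43.7 and 19.7 FPKM in NC and 50.1, 44.2 and 21.2 FPKM in siPrp19. SNHG3, the host of SNORA73A and SNORA73B, had 12.2, 10.4 and 14.6 FPKM in NC and 13.5, 11.3 and 13.7 FPKM in siPrp19, and here replicate 3 was highest. SNHG15, which hosts SNORA9, varied least over the NC samples, with 11.8, 12.0 and 12.0 FPKM in NC and 10.8, 13.3 and 11.8 FPKM in siPrp19. SNHG4, which hosts SNORA74A, had 3.05, 1.39 and 5.62 FPKM in NC and 3.18, 1.40 and 4.71 FPKM in siPrp19. Its replicates thus spanned a far wider range than its groups differed by, and the 95% interval of its log2 difference of −0.06 was −1.48 to 1.36 without the block and −0.32 to 0.20 with it.

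TAF1D, SNHG12 and SNHG25 host snoRNAs of both kinds. TAF1D is one of 2 host genes annotated as protein coding and encodes a subunit of SL1, the factor that brings RNA polymerase I to the ribosomal RNA promoter. TAF1D had 44.9, 46.4 and 30.4 FPKM in NC and 44.4, 45.5 and 27.7 FPKM in siPrp19, lower in 3 of 3 pairs, by −0.02, −0.03 and −0.13 on the log2 scale. SNHG12 had 9.12, 8.05 and 5.64 FPKM in NC and 9.41, 8.05 and 6.53 FPKM in siPrp19. Both genes kept the order of the replicates in the 2 groups. SNHG25 had 0.825, 1.23 and 1.82 FPKM in NC and 1.58, 0.865 and 2.17 FPKM in siPrp19 on only 5 to 15 reads per sample, and its 95% interval with the block was the widest, from −0.53 to 0.97.

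SNHG10, SNHG20 and SNHG21 host scaRNAs. SNHG20 (ENSG00000234912, chr17:77086716-77099902, plus strand), with SCARNA16, had 2.81, 2.46 and 2.76 FPKM in NC and 3.74, 2.85 and 3.19 FPKM in siPrp19, so that the siPrp19 samples all lay above the NC samples. The means were 2.67 ± 0.189 and 3.26 ± 0.447 FPKM (SD, n = 3), with an exact permutation p of 0.1 (two-sided). For SNHG20 the log2 difference was 0.27 ± 0.09 (SE with the block), with an adjusted p of 0.269 in limma with the block and 0.0551 in limma voom with the block. SNHG10, with SCARNA13, had 5.04, 3.36 and 4.65 FPKM in NC and 5.02, 3.68 and 4.73 FPKM in siPrp19. SNHG21, with SCARNA15, had 2.00, 2.59 and 1.15 FPKM in NC and 1.67, 2.65 and 1.45 FPKM in siPrp19. Neither showed a difference beyond the spread of its replicates. Of the 1053 exon bases of SNHG21, 768 also belong to a gene on its strand and 359 to a gene on the other strand.

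The other 7 host genes stayed under a mean of 1 FPKM and were not tested in the main fit. SNHG27 and the protein-coding gene named SNHG28 (ENSG00000256029) had 0 reads in all 6 samples, and the lincRNA SNHG28 (ENSG00000188004) had 0.115 to 0.651 FPKM. SNHG9, the host of SNORA78, ranged from 0.240 to 1.32 FPKM, SNHG22 from 0.0438 to 0.124 FPKM and SNHG26 from 0.0432 to 0.220 FPKM. SNHG18, which hosts SNORD123, had 0.0705, 0.0582 and 0.130 FPKM in NC and 0.271, 0.123 and 0.537 FPKM in siPrp19. These SNHG18 values rest on 3, 2 and 5 reads in NC and 12, 5 and 26 reads in siPrp19. The siPrp19 value was higher in 3 of 3 pairs, the groups overlapped, and the exact permutation p was 0.2 (two-sided).

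Replicate 3 separated the host genes more than the siRNA did. Of the 22 genes, 12 (54.5%) had their lowest value in replicate 3 of both groups, beside 27.7% of all genes, and 5 had their highest there, beside 30.6%. The 12 were GAS5, SNHG1, SNHG5, SNHG6, SNHG7, SNHG8, SNHG12, SNHG16, SNHG21, EPB41L4A-AS1, TAF1D and ZFAS1, of which 10 were above 10 FPKM in NC. The log2 difference of replicate 3 from the mean of replicates 1 and 2 was −1.56 in NC and −1.26 in siPrp19 for EPB41L4A-AS1, −1.15 in both groups for SNHG7, and −0.60 and −0.67 for GAS5. SNHG4 and SNHG25 lay on the opposite side, at 1.40 and 1.12 and at 0.79 and 0.84. Over the 22 genes the median was −0.41 in NC and −0.46 in siPrp19, beside 0.01 and 0.02 over all genes. With 1 such sample per group this is a description without a test.

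**Figure D3:**
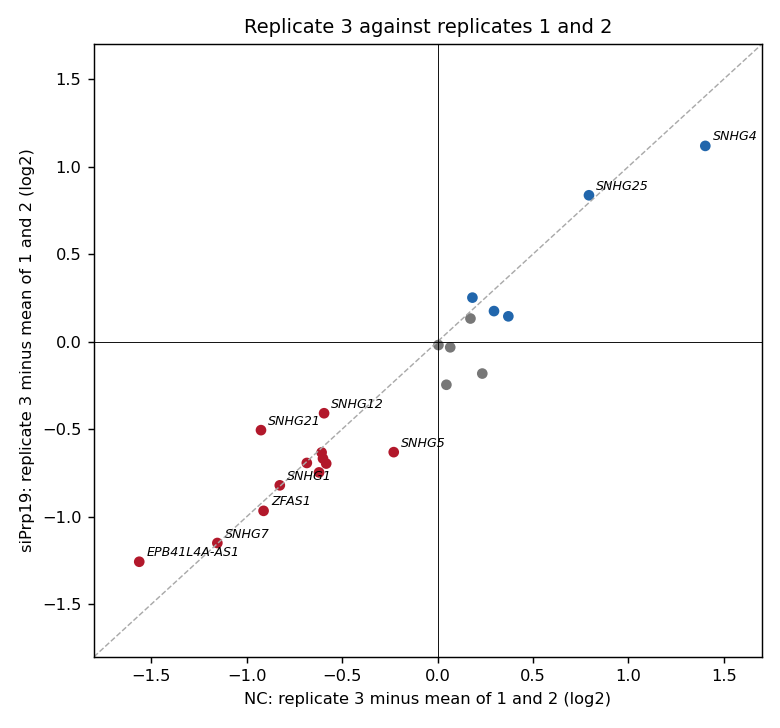
Log2 difference of replicate 3 from the mean of replicates 1 and 2 in NC (x axis) and in siPrp19 (y axis), 1 point per host gene, with red for the 12 genes lowest in replicate 3 of both groups, blue for the 5 genes highest there and grey for the rest. The points follow the dashed line of equal values from EPB41L4A-AS1 (−1.56 and −1.26) to SNHG4 (1.40 and 1.12).

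Other measures were read by replicate, and not all of them set replicate 3 apart. The share of reads on the 29 host genes was 0.251%, 0.249% and 0.185% in NC replicates 1, 2 and 3 and 0.270%, 0.251% and 0.177% in siPrp19. The summed level of the 12 adrenergic markers was 2774, 2698 and 2519.9 FPKM in NC and 3104, 2503 and 2494 FPKM in siPrp19, with 8 of the 12 lowest in replicate 3 of both groups. The 5 fibroblast markers summed to 119, 98.9 and 103 FPKM in NC and 117, 91.5 and 92.2 FPKM in siPrp19, the leukocyte markers to at most 0.192 FPKM, and CD3E and KRT5 were at 0 throughout. The part of the makeup of these samples in the low host gene levels was not tested. Reads on genes numbered 21943936, 19058782 and 19175189 in NC replicates 1, 2 and 3 and 22335013, 22273026 and 24181789 in siPrp19, and their part was not tested either.

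Protein-coding genes with a snoRNA gene within their span and on their strand gave a comparison, without a check that it lies in an intron. Of 28 such ribosomal protein genes 27 passed the filter, and 27 of 27 were lowest in replicate 3 of both groups, with a median of −0.53 in NC and −0.44 in siPrp19. RPS2 and RPL13A, both proteins of the ribosome, had 953 and 675 FPKM in NC replicate 3 and at least 1305 and 1009 FPKM in the other NC samples. Of 116 other protein-coding hosts past the filter, 44 (37.9%) were lowest in replicate 3 of both groups, beside 27.7% of all genes. Between siPrp19 and NC the ribosomal protein hosts had a median log2 difference of 0.00, with 14 above and 13 below 0, and the other coding hosts −0.00, with 55 above and 61 below. Limma without or with the block called 0 genes of either list. The block gave 2 and 12 at an unadjusted p under 0.05, beside 15.7% of all genes. Voom with the block called 0 and 9, beside 7.82% of all genes. Among the other coding hosts, EEF2, the translation elongation factor that moves the ribosome along, had 1194 ± 284 FPKM in NC and 1289 ± 248 FPKM in siPrp19 (SD, n = 3), with a log2 difference of 0.12. ATP5F1B, a subunit of ATP synthase, and RACK1, a protein of the small ribosomal subunit, had log2 differences of 0.07 each.

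The snoRNAs themselves were poorly sampled. GENCODE release 29 places 144 snoRNA genes within 26 of the host gene symbols and on their strand, 84 of them in SNHG14. Of these, 104 are SNORD, 28 SNORA and 4 SCARNA genes. GAS5 holds none in that release and 11 in RefSeq, so its snoRNAs were not analysed here. The 51 snoRNA genes that share bases with an annotated host exon had 0 reads in every sample, SNORA24 in SNHG8 and SCARNA16 in SNHG20 among them. The part of how reads lying on 2 genes were counted was not tested, so these zeros do not show that the snoRNAs were absent. Of the 93 outside host exons, 41 had reads. They lay in 13 hosts and summed to 262, 235 and 263 reads in NC and 311, 232 and 344 in siPrp19. Scaled to the reads on genes of each library (RPM) this was 12.7 ± 0.933 in NC and 12.9 ± 2.12 in siPrp19 (SD, n = 3), with an exact permutation p of 0.8 (two-sided). Most snoRNAs are shorter than the fragments that the labels say were selected for these libraries, and reads of a mature snoRNA and of its host intron cannot be told apart.

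SNORD104, printed above, held 26.2% of the reads on nested snoRNA genes. It had 50, 76 and 56 reads in NC and 84, 65 and 101 in siPrp19, while its host SNHG25 had 5, 6 and 10 and then 10, 5 and 15. SNORD104 had 3.06 ± 0.863 RPM in NC and 3.62 ± 0.641 in siPrp19 (SD, n = 3), with overlapping groups and an exact permutation p of 0.5 (two-sided). SNORA60 in SNHG11 had 12, 4 and 8 reads in NC and 12, 11 and 13 in siPrp19. SNORD1B in SNHG16 had 7, 8 and 5 reads and 14, 8 and 4, and SNORD12B in ZFAS1 had 12, 10 and 7 reads and 6, 6 and 10. The groups overlapped for all 3, and their difference was not tested.

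**Figure D4:**
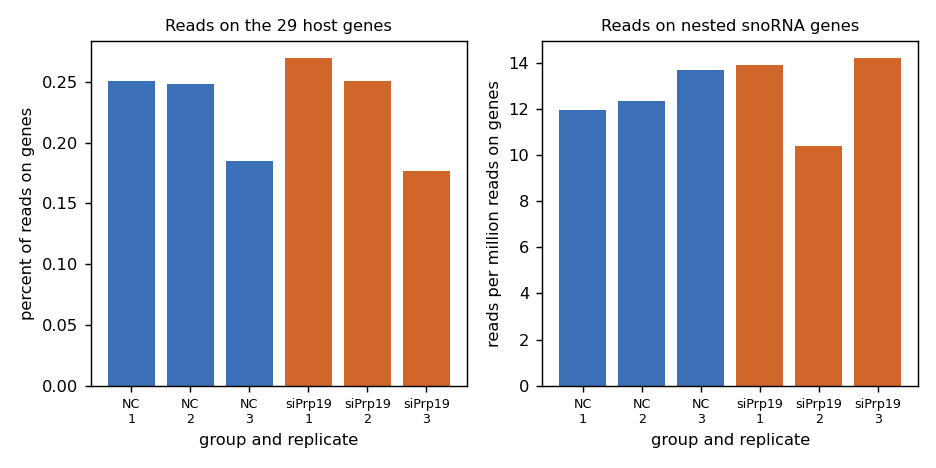
Left, percent of the reads on genes that lay on the 29 host genes, and right, reads on nested snoRNA genes as RPM of the reads on genes, with 1 bar per sample (blue NC, orange siPrp19, replicates 1 to 3). The host gene share is lowest in replicate 3 of both groups (0.185% and 0.177%), and the snoRNA reads range from 10.4 to 14.2 RPM with overlapping groups.

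Some host genes begin with a C followed by a run of C and T, the start that places an mRNA under growth-dependent control of translation. The first bases were read from the RefSeq start on GRCh38.p14 for the 24 host genes with an entry, with 10 bases before the start and 20 from it onward. A run was counted where the first base was C and at least 4 further bases were C or T, on the gene's strand only. It was found in 7 of 24 host genes (29.2%), beside 4.07% of 35116 RefSeq starts. The windows of those 7 are shown with the run in capitals, and those of GAS5, SNHG8, SNHG11 and SNHG16 follow in lower case, since they have no run at the listed start. The windows lie at chr6:85678714-85678743 for SNHG5, chr20:49278632-49278661 for ZFAS1, chr11:93741476-93741505 for TAF1D, chr16:2155339-2155368 for SNHG19, chr1:28581854-28581883 for SNHG12, chr5:139274091-139274120 for SNHG4 and chr5:9546190-9546219 for SNHG18. Those without a run lie at chr1:173869026-173869055 for GAS5, chr4:118278752-118278781 for SNHG8, chr20:38446644-38446673 for SNHG11 and chr17:76557754-76557783 for SNHG16. SNHG5, TAF1D, SNHG19, SNHG12 and GAS5 are on the minus strand and the others on the plus strand.
SNHG5: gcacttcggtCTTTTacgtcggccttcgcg
ZFAS1: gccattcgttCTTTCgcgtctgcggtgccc
TAF1D: aatagccaacCCTTTTCTTCCgcacggttg
SNHG19: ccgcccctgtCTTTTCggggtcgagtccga
SNHG12: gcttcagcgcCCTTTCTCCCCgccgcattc
SNHG4: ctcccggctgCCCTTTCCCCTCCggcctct
SNHG18: gccgcgccgcCTCCTCCTCCTCCTCCTCCC
GAS5: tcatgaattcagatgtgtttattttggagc
SNHG8: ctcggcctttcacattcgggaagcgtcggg
SNHG11: gctctaggctgcagccgcgcccccagccgt
SNHG16: gggcggtctcgcgttcttttcgaggtcggc

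A start site listed a few bases away from the one used would change the count, and initiation in these cells was not measured. Some RefSeq starts lie outside the GENCODE gene. For GAS5, on the minus strand, the start used is chr1:173869045, upstream of the GENCODE start at 173868882. For SNHG14, on the plus strand, it is chr15:24823608, upstream of the GENCODE start at 24978583. The printed GAS5 window is therefore not at its GENCODE start, and whether a run lies there was not tested. Of the 6 host genes past the filter with a run, SNHG19 and SNHG12 were above and ZFAS1, TAF1D, SNHG4 and SNHG5 below 0 in the log2 difference between siPrp19 and NC, from −0.14 to 0.26. Of the 13 with another listed start 12 were above and SNHG16 alone below 0, from −0.16 to 0.31. Replicate 3 was lowest in both groups for 4 of the 6 and for 7 of the 13. The other 3 past the filter, SNHG6, SNHG15 and SNHG25, had no entry in the table used.

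The genes that make and clear host transcripts were read from lists chosen for function. Of 20 snoRNP proteins and assembly factors, 8 were above and 12 below 0, with a median log2 difference of −0.01. FBL, the methyltransferase of C/D particles, had 112 ± 19.97 FPKM in NC and 121 ± 19.5 in siPrp19, and NOP10 of the H/ACA particle had 96.7 ± 18.1 and 89.6 ± 21.5 FPKM (SD, n = 3). NOLC1, which accompanies snoRNPs to the nucleolus, had 69.3 ± 26.4 and 70.7 ± 15.6 FPKM. In contrast to the host genes, 13 of these 20 were highest in replicate 3 of both groups, beside 30.6% of all genes. In replicate 3 of both groups 3 were lowest, beside 27.7%. Of 19 NMD factors and exon junction proteins, 14 were above and 5 below 0, with a median of 0.05. The exon junction proteins MAGOH and CASC3 differed by −0.02 and 0.09, and PNRC2, an adaptor between NMD and decapping, by 0.10. Of 13 genes listed for mRNAs or isoforms sensitive to NMD, 5 were above and 8 below 0, with a median of −0.01. The transcription factor ATF4 and the ribosomal proteins RPL3 and RPL12 differed by 0.02, 0.02 and −0.01. An FPKM adds up all transcripts of a gene, so isoforms cleared by NMD could not be read apart from the others. Limma called 0 genes of these 3 lists without or with the block. At an unadjusted p under 0.05 there were 0, 0 and 0 without it, beside 1.56% of all genes, and 1, 0 and 1 with it, beside 15.7%. Voom with the block called 0, 0 and 1 of them, beside 7.82% of all genes.

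The other subunits of SL1 were set beside TAF1D. TAF1C had 11.0 FPKM in each of the 3 NC samples and 11.4, 13.0 and 13.0 FPKM in siPrp19, without overlap. Its log2 difference was 0.18 ± 0.06 (SE with the block), with an adjusted p of 0.289 in limma with the block. TBP, which SL1 shares with other promoter complexes, differed by 0.05. Over the 5 subunits 2 were above and 3 below 0, and none was called in limma without or with the block or in voom with it. In limma 0 and 2 had an unadjusted p under 0.05 without and with the block, beside 1.56% and 15.7% of all genes.

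Protein-coding genes on the other strand were listed where they start within 1 kb of the GENCODE start of a host gene. There were 8 such pairs, from ACAA2, an enzyme of fatty acid oxidation 63 bases from SNHG22, to ZBTB37, 800 bases from GAS5. The partners did not share the level of the host genes: RPS2 had a mean of 1235 FPKM in NC and SNHG9, which starts 99 bases away, had 0.720, while GAS5 had 112 and ZBTB37 had 2.95. Of the 8 partners 7 were above and 1 below 0 between siPrp19 and NC, with a median log2 difference of 0.02. SLC3A2, the heavy chain of amino acid transporters next to SNHG1, differed by 0.00, TRAF7 next to SNHG19 by 0.05, and ZNFX1 next to ZFAS1 by 0.01. SEMA5A next to SNHG18 differed by 0.11, ACAA2 by 0.07, RPS2 by 0.03, ZBTB37 by 0.02, and MED17, a Mediator subunit, by −0.05. MED17 is paired with TAF1D by the GENCODE start at chr11:93784391. The RefSeq start of TAF1D at chr11:93741495, used above, lies far from it, so MED17 is not next to that start. Limma called 0 of them without or with the block, 0 had an unadjusted p under 0.05 in either fit, and voom with the block called 0.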

How the data were processed

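RNA of 3 NC and 3 siPrp19 samples was measured, with groups and replicate numbers taken from the labels. The FPKM values were deposited by the authors as 1 table per sample, and the submitters' processing notes name HISAT2 2.0.5, featureCounts 1.5.0-p3 and hg38. Whether reads were counted by strand is not given in the sources used here.

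The host genes and all gene lists were chosen with earlier results of these data known. The test was limma 3.58.1 (R 4.3.3) on log2(FPKM + 0.1) of genes averaging 1 FPKM or more, with group as the only term and calls at a Benjamini-Hochberg adjusted p under 0.05. Single values had an exact two-sided permutation test. A second fit had the replicate number as a block, since deviations of same-numbered samples correlated in every pair (r = 0.38, 0.57 and 0.64 over genes). Multiplying FPKM by GENCODE release 29 exon length and depth gave whole reads, within 0.05 reads in all 6 samples, for 95.9% of 37521 genes, 18 of the 22 tested host genes among them, and limma voom was run on the reads of all genes with a length, rounded to whole numbers. Intervals are 95%. Other settings were a pseudocount of 1, no filter, a mean of 5 FPKM, TPM, quantile normalization, no trend with robust variances, and each sample or pair left out. All host genes past this filter were named, and from each other list the 3 with the highest mean, any called gene and all partner genes past the filter. The values of 1 gene that this rule named are not reported here. Tables were made with Python 3.11.15 and pandas 2.3.3, and the fits were tested on simulated data.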

Additional observations from a re-analysis of the deposited data

How the results depend on the processing

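No setting outside the left-out samples moved a host gene to the other side of 0 except SNHG15 and SNHG5. SNHG15 was at 0.00237 with TPM (with and without the replicate block), 0.00422 with quantile normalization, 0.0115 with limma voom on recovered reads and 0.00961 with voom and the replicate block. SNHG5 was at 0.000273 with voom and 0.00491 with voom and the replicate block. Of the other genes, RPL12 was at 0.0259 with quantile normalization, 0.00368 with voom and 0.00105 with voom and the replicate block, RPS2 at −0.0359 with quantile normalization and MAGOH at 0.000673 with voom. Genes called numbered 1 without trend and with robust variances, 124 with the replicate block and a mean of 5 FPKM or more, and 1128 with voom and the replicate block, which also called 1 host gene, SNHG8. The replicate block changed no other call of a host gene. Voom with the replicate block and each pair left out was added after seeing the data. The median over host genes was 0.16 over those whose exons overlap no other gene apart from snoRNA genes, and ranged from −0.045 to 0.19 when 1 sample or pair was left out, lowest without NC replicate 3 and highest without siPrp19 replicate 3.

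Leaving out 1 sample or pair moved these host genes across 0, with log2 differences of GAS5 −0.19 to 0.23, SNHG5 −0.14 to 0.20, SNHG6 −0.28 to 0.18, SNHG1 −0.21 to 0.33, SNHG19 −0.0093 to 0.41, TAF1D −0.25 to 0.17, EPB41L4A-AS1 −0.40 to 0.54, SNHG16 −0.36 to 0.049, SNHG7 −0.28 to 0.48, ZFAS1 −0.44 to 0.18, SNHG3 −0.061 to 0.18, SNHG15 −0.080 to 0.069, SNHG12 −0.11 to 0.23, SNHG10 −0.12 to 0.18, SNHG4 −0.56 to 0.41, SNHG14 −0.057 to 0.13, SNHG21 −0.28 to 0.28 and SNHG25 −0.11 to 0.56. SNHG8, SNHG11, SNHG17 and SNHG20 stayed above 0 throughout. Other named genes crossed 0 as well, with FBL −0.0093 to 0.24, NOP10 −0.30 to 0.027, NOLC1 −0.10 to 0.36, MAGOH −0.24 to 0.17, CASC3 −0.015 to 0.18, ATF4 −0.18 to 0.21, RPL3 −0.16 to 0.17, RPL12 −0.23 to 0.15, TBP −0.016 to 0.14, RPS2 −0.15 to 0.18, RPL13A −0.18 to 0.20, EEF2 −0.081 to 0.29, RACK1 −0.12 to 0.22, ZBTB37 −0.051 to 0.073, SLC3A2 −0.21 to 0.24, TRAF7 −0.037 to 0.11, MED17 −0.16 to 0.047 and ZNFX1 −0.049 to 0.091. The cause was not tested. Without the block, these sample-to-sample differences and 3 samples per group limit what can be seen. SNHG25, SNHG9, SNHG22 and SNHG26 rest on fewer than 20 reads per sample.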
